A study of Homo sapiens with 4 samples.

Results

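The plasminogen activation system was examined through 6 genes chosen by name, with earlier results of these data known. They were the activators *PLAU* and *PLAT*, the urokinase receptor *PLAUR*, the inhibitor *SERPINE2*, and *ANXA2* and *S100A10*. The products of *ANXA2* and *S100A10* form a plasminogen-binding complex at the cell surface. All 6 were among the 63677 Ensembl genes of the count table, and all 6 passed the filter on low counts that left 18252 genes to be tested. Human LX-2 cells, a widely used hepatic stellate line, were given 20 nM of a miR-6133-5p mimic or of a negative control mimic called miControl by lipid transfection. Every culture then received 5 ng/mL of rhTGF-β1 (recombinant human transforming growth factor β1, a fibrogenic cytokine) 24 h later, and RNA was collected after a further 24 h. There were 2 libraries in each group, and the comparison asks how these transcripts differed between cells given the mimic and cells given miControl, since no library here lacked rhTGF-β1 or a mimic. A single cell line was used, and the labels do not say whether the libraries of a group came from separate cultures, so p-values measure the spread between these libraries, which may be technical.

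Plasmin, the protease that dissolves fibrin and cleaves other matrix proteins, is made by cutting its inactive precursor plasminogen, which the liver's hepatocytes secrete into the blood. Urokinase, encoded by *PLAU*, does this largely at cell surfaces while bound to its GPI-anchored receptor, encoded by *PLAUR*, whereas tissue plasminogen activator, encoded by *PLAT*, works best on fibrin and on surface proteins such as the annexin A2 complex. Serpins trap the activators in covalent complexes that surface receptors then clear. In fibrotic liver, activated stellate cells are a known source of activators, of their receptor and of their inhibitors, and this balance sets how much matrix plasmin can reach.

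Library totals ran from 51862006 to 93811213 counts, and 1 count equalled 0.0101 to 0.0203 CPM (CPM being the count scaled to the library total and its TMM factor). *VIM*, a mesenchymal intermediate filament gene, stood at 1555 to 2030 CPM in the 4 libraries, while *DES* and *LRAT*, which mark stellate cells in tissue, had at most 7 counts in any library. Of 10 mesenchymal and stellate markers 7 were tested, and 3 of them fell, *COL1A1*, *COL1A2* and *SPARC* (edgeR). The other 4 did not pass: *VIM* (log2 fold change -0.018), *PDGFRB* (0.039), *TIMP1* (0.42, adjusted p = 0.0134, edgeR) and *DCN*, at 10 counts or fewer. The hepatocyte genes *ALB*, *APOA1*, *TTR* and *CYP3A4* had at most 8 counts each, and *SERPINA1*, the only one of the 5 listed hepatocyte genes that was tested, was at 1.97 to 2.78 CPM and did not pass. Of the 4 cholangiocyte markers 1 was tested, *KRT7*, which rose (log2 fold change 0.76, adjusted p = 0.00317, edgeR quasi-likelihood test). The summed level of that list was 3.70 to 4.59 CPM in the miControl libraries and 6.82 to 7.32 CPM in the miR-6133-5p libraries, with *EPCAM*, *KRT19* and *CDH1* at 18 counts or fewer, and its part in the results was not tested. Bulk libraries cannot separate fewer expressing cells from less RNA per cell.

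The agent was a mimic of the 5p arm of the miRNA encoded by *MIR6133*. Its hairpin precursor, in the RefSeq record, lies at chr7:133290881-133290988 (GRCh38.p14, plus strand) and is shown, 5′ to 3′ and in lower case throughout, to identify the gene from which the mimic takes its name.
MIR6133 hairpin: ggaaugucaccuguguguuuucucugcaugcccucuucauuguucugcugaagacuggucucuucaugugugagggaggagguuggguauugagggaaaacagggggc

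Among the 6 genes, *SERPINE2* and *PLAUR* fell and *PLAU* rose in the miR-6133-5p libraries, while *PLAT*, *ANXA2* and *S100A10* did not pass the test. A gene was said to pass at an adjusted p below 0.01, and was called when its log2 fold change also lay beyond 0.8 in either direction. By the stricter rule 1 of the 6, *SERPINE2*, was called lower, where 5.54% of all tested genes were, and 1, *PLAU*, was called higher, where 2.9% were. At any size of change 2 of the 6 passed lower, against 10.9% of tested genes, and 1 passed higher, against 7.96%. In 4 of the 6 the values of the 2 groups did not overlap, which held for 64.4% of all tested genes. That last share is near the background, and counts among 6 genes set no pattern apart from it. The median log2 fold change of the 6 was 0.055, beside 0.026 over all tested genes.

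**Figure D1:**
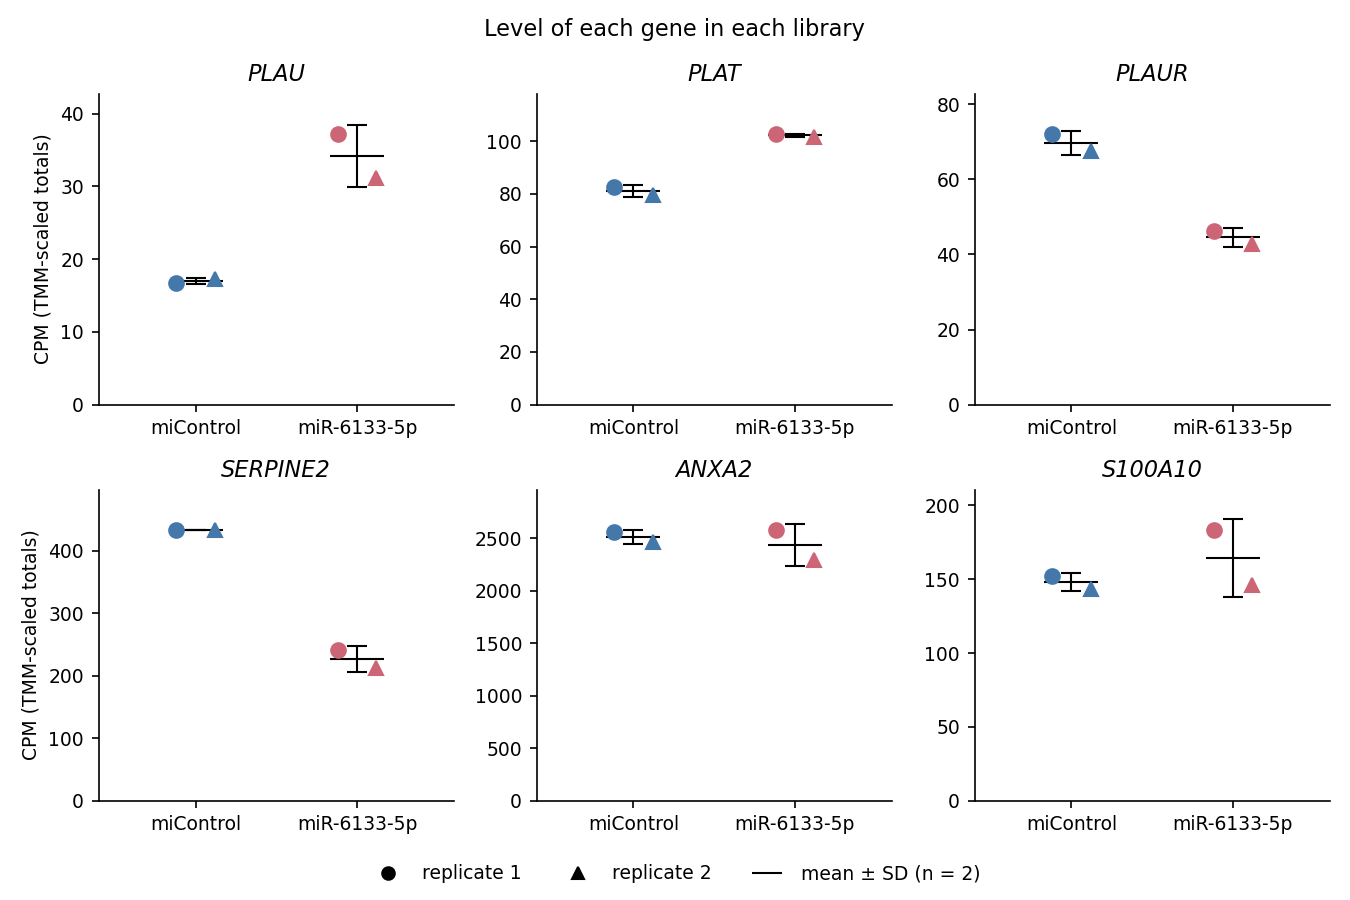
Level of each gene in CPM (vertical axes, linear and starting at 0, with a range of its own for each gene) in the 2 miControl and the 2 miR-6133-5p libraries. Circles are replicate 1, triangles replicate 2, and bars the mean ± SD. The groups stand apart in *PLAU*, *PLAT*, *PLAUR* and *SERPINE2* and overlap in *ANXA2* and *S100A10*.

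*PLAU* encodes urokinase, the activator that works with the cell-surface receptor. Its level was 16.7 and 17.2 CPM in miControl replicates 1 and 2 and 37.2 and 31.2 CPM in miR-6133-5p replicates 1 and 2, from 822 to 3092 counts. Both mimic libraries lay above both controls, and replicate 1 was the higher of that pair. The mean rose from 17.0 ± 0.37 to 34.2 ± 4.25 CPM (SD, n = 2 libraries per group), which was 2.01-fold higher (log2 fold change 1.01, SE 0.12, adjusted p = 3.56e-05, edgeR quasi-likelihood test). The gene lies at chr10:75668935-75677254 on the plus strand of GRCh37, and 31.0% of its exon bases are also exon of *C10orf55*, a non-coding gene on the opposite strand. The strand setting of the counting is not stated, so reads of the overlap cannot be assigned with certainty. *C10orf55* itself had 10 to 33 counts, between 0.411% and 3.51% of the *PLAU* count of the same library. Its log2 fold change was -0.93 (adjusted p = 0.239, edgeR quasi-likelihood test), in the other direction from that of *PLAU*.

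*PLAT* encodes the tissue-type activator, whose transcript was the more abundant of the pair per kilobase (values with the levels per kilobase). Its level was 82.6 and 79.5 CPM in the miControl libraries and 103 and 102 CPM in the miR-6133-5p libraries. The groups did not overlap, and the mimic replicates differed by less than the controls did. The mean was 81.1 ± 2.21 CPM and 102 ± 0.72 CPM (SD, n = 2 libraries per group), a log2 fold change of 0.33 (SE 0.10, adjusted p = 0.0225, edgeR quasi-likelihood test), which missed the threshold. With library totals alone in place of TMM factors *PLAT* passed, at a log2 fold change of 0.50 (adjusted p = 0.00181, edgeR). That scaling moved the median of all genes from 0.026 to 0.19 log2, and *PLAT* then stood 0.31 above the median, as it did with TMM. The gene lies at chr8:42032236-42065227 on the minus strand of GRCh37, and no annotated exon of another gene overlaps its exons.

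*PLAUR*, which encodes the urokinase receptor, went the other way from its ligand. Its level was 72.1 and 67.5 CPM in the miControl libraries and 46.4 and 42.8 CPM in the miR-6133-5p libraries. Both mimic libraries lay below both controls, and the gap between the groups exceeded the gap within either. The mean fell from 69.8 ± 3.25 to 44.6 ± 2.54 CPM (SD, n = 2 libraries per group), a log2 fold change of -0.65 (SE 0.10, adjusted p = 0.000403, edgeR quasi-likelihood test). The level fell by 36.1%, which passed the test and did not reach the size required for a call. Without miControl replicate 1 the log2 fold change was -0.61 and *PLAUR* no longer passed. In that fit fewer of all tested genes passed too. The gene lies at chr19:44150247-44174699 on the minus strand of GRCh37.

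*SERPINE2* encodes protease nexin-1, a serpin that inhibits thrombin, urokinase, tissue plasminogen activator and plasmin. Its level was 432 and 433 CPM in the miControl libraries and 241 and 212 CPM in the miR-6133-5p libraries. The controls were nearly identical and both mimic libraries lay far below them. The mean fell from 433 ± 0.34 to 226 ± 20.5 CPM (SD, n = 2 libraries per group), so that the level fell by 47.7% at a log2 fold change of -0.94 (SE 0.11, adjusted p = 2.54e-05, edgeR quasi-likelihood test). With library totals alone the log2 fold change was -0.77 (adjusted p = 0.000109, edgeR), which still passed and was no longer called. Against the median of all genes *SERPINE2* stood at -0.96 log2 with TMM and with library totals alone. Under that scaling 42.1% of all called genes were lower, against 65.6% with TMM. The gene lies at chr2:224839762-224904035 on the minus strand of GRCh37, and none of its exon bases is shared with another annotated gene.

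*ANXA2* and *S100A10* encode the subunits of the annexin A2 complex, in which S100A10 is known for binding plasminogen and annexin A2 for holding it at the membrane. *ANXA2* stood at 2556 and 2465 CPM in the miControl libraries and at 2579 and 2294 CPM in the miR-6133-5p libraries. The mimic replicates held both the highest and the lowest of these values. Its log2 fold change was -0.043 (SE 0.10, adjusted p = 0.801, edgeR quasi-likelihood test). With library totals alone its sign turned, to 0.12 (adjusted p = 0.391, edgeR). Against the median of all genes *ANXA2* stood at -0.069 log2 with TMM and with library totals alone. *S100A10* stood at 152 and 144 CPM in the miControl libraries and at 183 and 146 CPM in the miR-6133-5p libraries. Only mimic replicate 1 lay above both controls. Its log2 fold change was 0.15 (SE 0.12, adjusted p = 0.380, edgeR quasi-likelihood test), and without that replicate it was -0.038 (adjusted p = 0.822, edgeR).

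*ANXA2* lies at chr15:60639333-60695082 and *S100A10* at chr1:151955391-151966335, both on the minus strand of GRCh37. *ANXA2* has processed pseudogenes of near-identical sequence to which the counting could have lost reads. *ANXA2P2* had 308 to 682 counts, 0.231% to 0.300% of the *ANXA2* count of the same library, *ANXA2P1* had 18 to 31, and *ANXA2P3* had 0 in every library. The aligner's summary lists 0 pairs as mapped to several places and 1.24% to 1.36% of pairs as mapped to too many, and how many of the latter came from *ANXA2* was not analysed here, so its level is uncertain to that extent.

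Per kilobase of the canonical transcript, the scale on which the genes can be compared with each other, *ANXA2* had the highest level in both groups and *PLAU* the lowest. In the miControl libraries the levels were 1615 ± 41.7 CPM per kilobase for *ANXA2*, 221 ± 9.19 for *S100A10*, 194 ± 0.15 for *SERPINE2*, 51.0 ± 2.37 for *PLAUR*, 26.5 ± 0.72 for *PLAT* and 7.25 ± 0.16 for *PLAU* (SD, n = 2). Each step of that order was larger than the spread of the libraries. In the miR-6133-5p libraries they were 1568 ± 130 CPM per kilobase for *ANXA2*, 245 ± 39.4 for *S100A10*, 102 ± 9.22 for *SERPINE2*, 33.4 ± 0.24 for *PLAT*, 32.6 ± 1.86 for *PLAUR* and 14.6 ± 1.81 for *PLAU*. There *PLAT* and *PLAUR* overlapped, so that neither could be placed above the other. The order of the lower genes depends on the length used. Over the union of all annotated exons *PLAU* stood at 12.6 and 10.6 CPM per kilobase in the miR-6133-5p libraries and *PLAUR* at 10.4 and 9.60, which reverses their order.

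Ratios of counts within a library do not depend on its total or its scaling factor. They combine the levels of genes already described and are not further evidence that either gene changed. The ratio of *PLAU* to *SERPINE2*, an activator to an inhibitor that can trap it, was 0.0387 and 0.0398 in the miControl libraries and 0.154 and 0.147 in the miR-6133-5p libraries. The groups were well apart and the replicates close, and the mean ratio was 3.84-fold higher with the mimic, a difference of 1.94 on the log2 scale. For *PLAT* to *SERPINE2* the ratio was 0.191 and 0.184 against 0.426 and 0.480, 2.42-fold higher. For *PLAU* to its receptor *PLAUR* it was 0.232 and 0.256 against 0.802 and 0.729, 3.14-fold higher. Between the activators, *PLAU* to *PLAT* was 0.202 and 0.217 against 0.362 and 0.307, 1.59-fold higher. *ANXA2* to *S100A10* was 16.8 and 17.2 against 14.1 and 15.7, a change of -0.19 on the log2 scale. None of the 5 ratios overlapped between the groups. The levels of single genes did not overlap in 64.4% of all tested genes, and no such share was computed for ratios. For *ANXA2* to *S100A10* the ratio did not overlap although the levels of both genes did. The ratios are given as values with no test, and the smallest p that an exact permutation test of 2 libraries against 2 allows is 0.33.

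**Figure D2:**
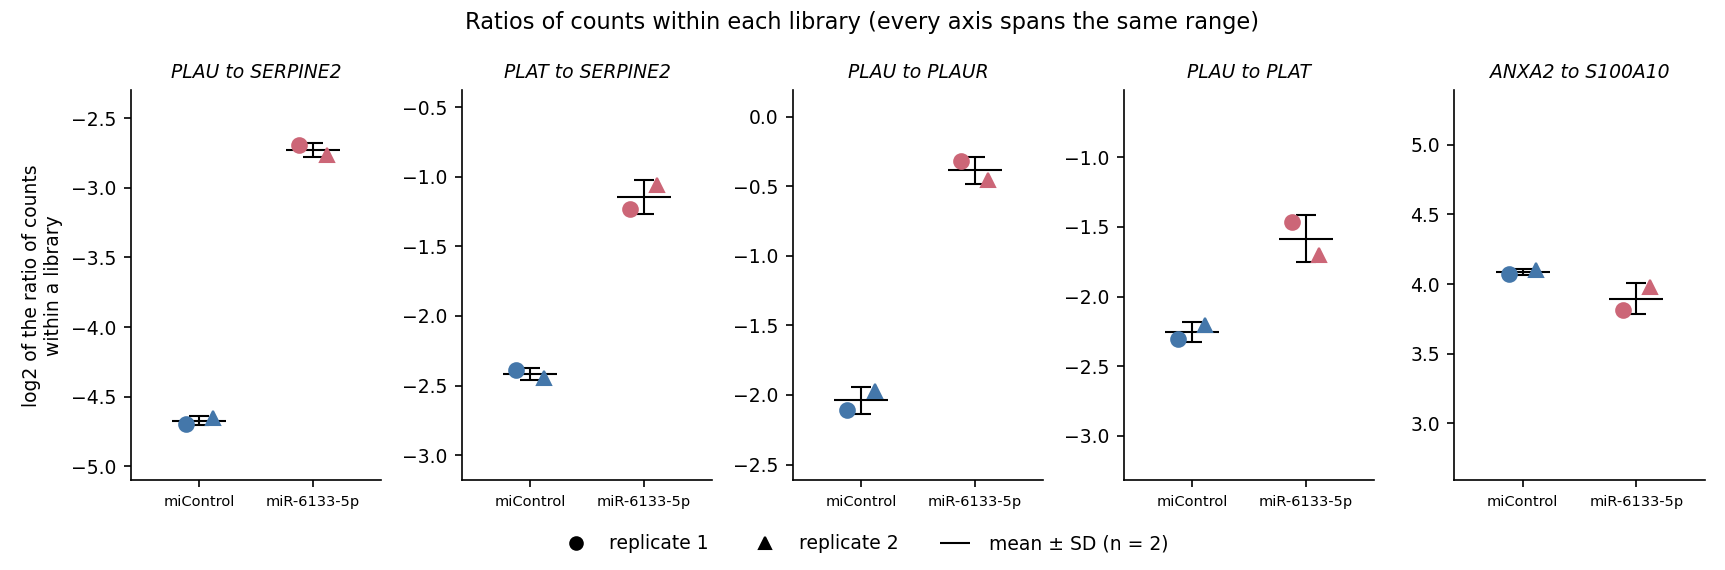
Log2 of the ratio of counts of 2 genes within each library (vertical axes, all spanning the same range), for the 2 miControl and the 2 miR-6133-5p libraries. Circles are replicate 1, triangles replicate 2, and bars the mean ± SD. The ratio of *PLAU* to *SERPINE2* shows the widest gap, 1.94, and that of *ANXA2* to *S100A10* the narrowest, -0.19.

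All 6 genes were higher in replicate 1 than in replicate 2 of the miR-6133-5p group, by 0.014 log2 CPM for *PLAT* to 0.33 for *S100A10*. This gap went with transcript length across 9500 genes with a canonical length and a mean of at least 8 CPM. Its median was 0.18 in 2003 genes with a canonical transcript under 2 kb and -0.27 in 949 genes of 8 kb and over, beside 0.055 and -0.070 between the miControl libraries. *S100A10*, *PLAUR* and *ANXA2* are in the shortest class, and the canonical transcripts of *SERPINE2*, *PLAU* and *PLAT* are 2226, 2343 and 3062 bases long. The part of this gap in the results was not tested. Without mimic replicate 1 the log2 fold changes of *SERPINE2* and *PLAU* were -1.05 and 0.86, and without mimic replicate 2 they were -0.86 and 1.12.

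Start-site sequences are shown for the members that passed and for *ANXA2*, the member with the highest level per kilobase, to set the genes that moved beside one that did not pass. RefSeq start windows of GRCh38.p14 were found for 5 of the 6 genes, 7 windows in all, and the 250 bases before each start were searched on both strands for the AP-1 motif TGANTCA, the GC box GGGCGG and the CCAAT box. No match overlapped a match of another motif, and the motifs were chosen after the windows had been read. Matches are in capitals in the windows of the most downstream start of *PLAU* (chr10:73910882-73911131, plus strand) and of *SERPINE2* (chr2:224031479-224031728, minus strand).
PLAU: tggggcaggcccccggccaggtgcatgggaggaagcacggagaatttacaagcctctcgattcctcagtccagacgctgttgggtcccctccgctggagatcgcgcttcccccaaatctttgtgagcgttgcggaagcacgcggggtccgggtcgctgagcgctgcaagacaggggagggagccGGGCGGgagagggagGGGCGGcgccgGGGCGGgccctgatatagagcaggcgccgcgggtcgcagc
SERPINE2: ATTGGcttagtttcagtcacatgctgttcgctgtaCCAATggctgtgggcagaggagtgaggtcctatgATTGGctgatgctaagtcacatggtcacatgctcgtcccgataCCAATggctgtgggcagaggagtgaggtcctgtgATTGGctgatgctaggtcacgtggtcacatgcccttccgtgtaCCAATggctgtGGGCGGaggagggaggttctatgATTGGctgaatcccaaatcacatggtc

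The *SERPINE2* window held 7 CCAAT boxes, on alternating strands within a repeated stretch, and 1 GC box, while the other *SERPINE2* window (chr2:224038641-224038890) held 0 CCAAT boxes and 2 GC boxes. At least 1 CCAAT box was found in 32.0% of 35114 windows of the same length, and 7 or more in 7 of them. That cut was set at the count of the *SERPINE2* window, which is among those 7, so the rarity is no test. The *PLAU* window held 3 GC boxes, 66, 51 and 40 bases before the start, and 42.6% of all windows held at least 1. The *ANXA2* window also held 3, at 78, 73 and 68 bases before the start, and these overlap each other. The other *PLAU* window (chr10:73910360-73910609) held 0 GC boxes and 1 CCAAT box. In *PLAUR* and in *ANXA2* the AP-1 motif occurred once, 186 and 127 bases before the start, and 6.57% of all windows held it. Those matches are shown in capitals within 30 bases, at chr19:43670337-43670366 and chr15:60398095-60398124, both on the minus strand.
PLAUR: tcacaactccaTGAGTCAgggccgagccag
ANXA2: gcgggccggggTGAGTCAcccctgacttgg

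The letters TGAGTCA were thus in the window of a gene that fell and of one that did not pass. A match is a description of the reference letters and not a site shown to be bound, and gene counts do not tell which of the start sites was used in these cells.

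Around the 6 genes, 97 others of the system and its neighbours were taken in 9 lists, and 70 of them had counts enough to be tested. Of these 13 passed lower and 4 higher, with 6 and 2 called, and their median log2 fold change was -0.0017. That is 18.6% lower and 5.71% higher at any size, beside the 10.9% and 7.96% of all tested genes. The lists were chosen with earlier results of these data known, so the share of a list that passed is no test. Of the 17 that passed, 6 also passed with each library left out in turn: *S100A16*, *F3*, *F2R*, *F2RL2*, *PDGFC* and *LYPD1*. The others lost it in some of these fits, mostly without a miControl library. Fewer of all tested genes passed without either miControl library, and more without either miR-6133-5p library. Such a loss is thus not particular to these genes.

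**Figure D3:**
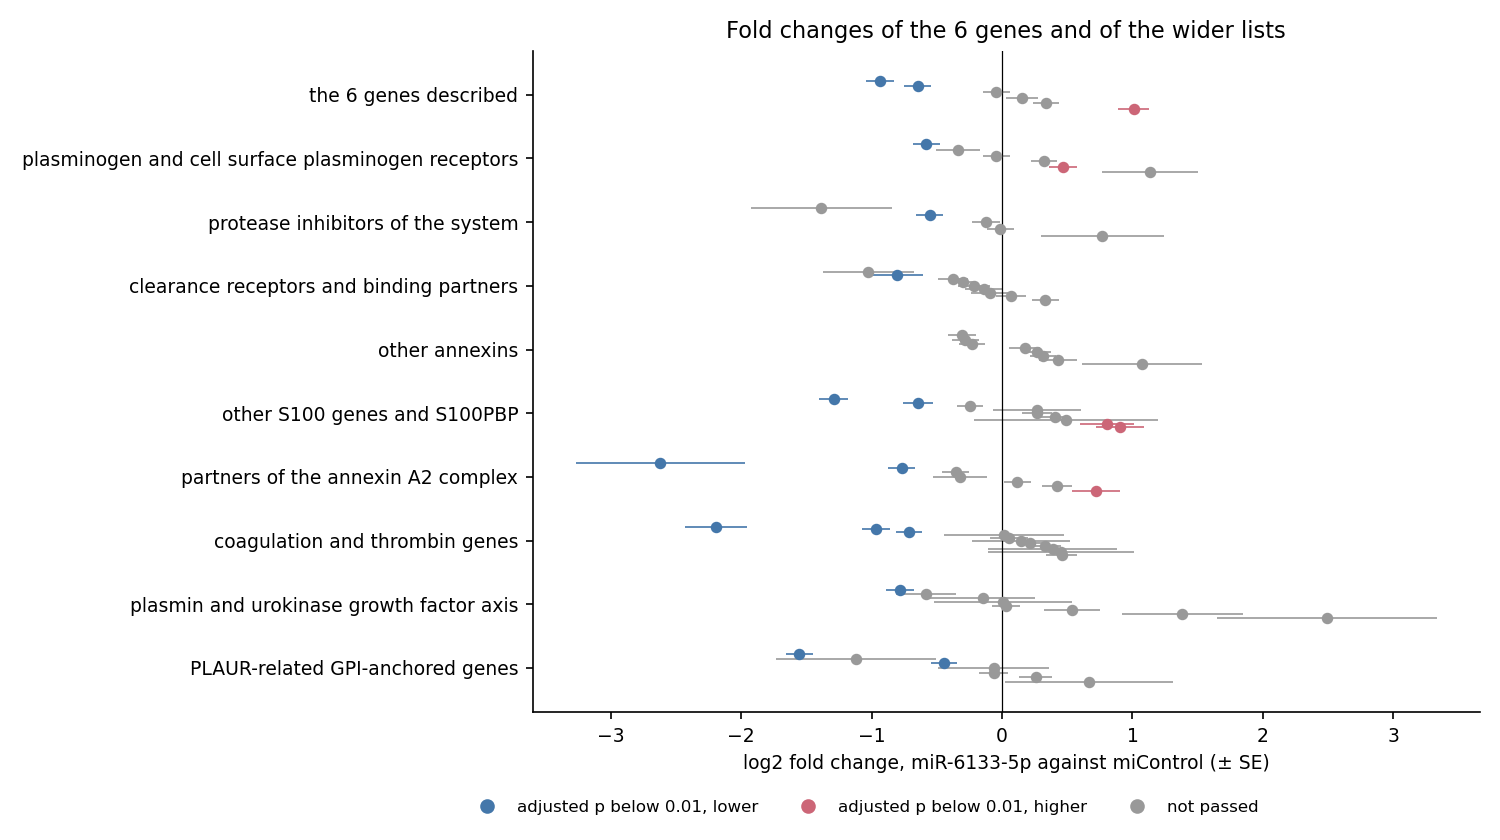
Log2 fold change of miR-6133-5p against miControl with its standard error (horizontal axis), for the 6 genes in the top row and for the tested genes of each wider list below it. Blue points passed lower, red points passed higher and grey points did not pass at an adjusted p of 0.01 (edgeR). *SERPINE2* and *PLAUR* are the blue points of the top row and *PLAU* the red one.

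Plasminogen itself, *PLG*, had 0 counts in every library, which allows at most 3 counts or 0.0303 to 0.0610 CPM per library, a limit that covers counting error only. Of 6 tested genes for surface proteins that bind plasminogen or its activators, 1 fell and 1 rose. *CKAP4*, which encodes a receptor for tissue plasminogen activator, was at 259 and 245 CPM in miControl and 175 and 162 CPM in miR-6133-5p libraries (log2 fold change -0.58, adjusted p = 0.000882, edgeR quasi-likelihood test). *KRT8*, a keratin that can bind plasminogen on the outer surface, rose from 209 and 185 to 281 and 264 CPM (0.47, adjusted p = 0.00514, edgeR). Without miControl replicate 1 or 2 neither passed, at adjusted p (edgeR) of 0.0392 and 0.013 for *CKAP4* and 0.0496 and 0.176 for *KRT8*. *ENO1*, a glycolytic enzyme also found as a surface plasminogen receptor, had a log2 fold change of 0.32 and did not pass, nor did *PLGRKT* (-0.34), *HMGB1* (-0.043) or *S100A4* (1.13).

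Besides *SERPINE2*, 9 genes for inhibitors were listed and 5 were tested. *SERPINB8*, an intracellular serpin, fell (45.9 and 47.2 CPM against 32.5 and 30.9 CPM, log2 fold change -0.56, adjusted p = 0.00118, edgeR), and did not pass without miControl replicate 1 or 2 (adjusted p = 0.0241 and 0.0209, edgeR). *SERPINB2*, a urokinase inhibitor, was under 1 CPM in every library. *TFPI2*, a Kunitz inhibitor of plasmin, stood at 356 and 353 CPM in miControl and 350 and 302 CPM in miR-6133-5p libraries and did not pass. *SERPINF2* and *A2M*, the genes of the plasma inhibitors of plasmin, had at most 13 and 4 counts.

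Of 9 tested genes in a list of receptors that clear activators with their inhibitors, and of binding partners, 1 passed. *LRP1*, which takes up complexes of activators with serpins, was at 302 and 285 CPM in the miControl libraries and at 121 and 216 CPM in the miR-6133-5p libraries, and its log2 fold change was -0.80 (SE 0.19, adjusted p = 0.0070, edgeR). Both mimic libraries lay below the controls, and they were 0.84 log2 CPM apart. Without miR-6133-5p replicate 1 the log2 fold change was -0.46 and it was no longer called. Without miControl replicate 1 or 2 it did not pass (adjusted p = 0.102 and 0.0367, edgeR), nor did it in DESeq2. *AHNAK*, another long transcript, showed a like gap of 0.94 log2 CPM between the mimic replicates. *MRC2*, which binds urokinase with its receptor, had a log2 fold change of -0.38 (adjusted p = 0.0264, edgeR) and was the 1 gene of this list that passed in DESeq2, and *VTN*, a matrix ligand of that receptor, was under 2 CPM.

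None of the 8 other annexin genes tested passed in edgeR or in DESeq2, and 3 were lower and 4 higher at an unadjusted p below 0.05, with log2 fold changes from -0.31 (*ANXA5*) to 1.07 (*ANXA9*, under 1 CPM). Of 9 tested genes in a list of other S100 genes, which also holds *S100PBP*, the gene of a protein that binds an S100 protein, 2 fell and 2 rose. *S100A16* went from 73.9 and 73.6 CPM to 32.9 and 27.4 CPM (log2 fold change -1.29, SE 0.11, adjusted p = 2.64e-06, edgeR), and *S100A11* from 211 and 192 to 140 and 118 CPM (-0.64, adjusted p = 0.000919, edgeR). *S100A11* lost its pass without miControl replicate 1 (adjusted p = 0.0402, edgeR). *S100A3* and *S100A2* were called higher at 2.42 to 5.66 CPM. Both lost the call without miControl replicate 1 or 2, and *S100A2* also without miR-6133-5p replicate 1, at adjusted p from 0.0129 to 0.149 (edgeR). *S100A10* thus stood between relatives that moved in either direction. Among 7 tested partners of the annexin A2 complex, *DLC1*, a RhoGAP that binds S100A10, fell from 1106 and 1109 to 611 and 688 CPM (-0.77, adjusted p = 0.00011, edgeR) and did not pass without miControl replicate 1 (adjusted p = 0.0132, edgeR). *KCNK3* fell at under 1 CPM and *AHNAK2* rose by 0.72 log2, each passing in 1 of 4 fits with a library left out (adjusted p in the others from 0.0428 to 0.112, edgeR), and neither passed in DESeq2. The log2 fold change of *AHNAK2* was 1.04 without miR-6133-5p replicate 1 and 0.27 without miR-6133-5p replicate 2. *CAV1* (-0.35) and *DYSF* (0.42) did not pass in edgeR and passed in DESeq2, as did *S100A6* (0.41) among the S100 genes.

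*SERPINE2* acts on thrombin as well, and 3 of the 11 tested coagulation and thrombin genes passed lower, where 10.9% of all tested genes did. These 3 were the only ones of the 11 with a log2 fold change below 0. The other 8 were above 0, and the median was 0.14. None passed higher in edgeR, 2 were higher at an unadjusted p below 0.05, and 1, *TFPI*, passed higher in DESeq2. *F3*, tissue factor, which starts thrombin formation, was at 125 and 121 CPM in miControl and 67.4 and 58.6 CPM in miR-6133-5p libraries (log2 fold change -0.96, SE 0.11, adjusted p = 2.12e-05, edgeR), close to the size of the fall of *SERPINE2*. *F2R*, the main thrombin receptor, went from 101 in each miControl library to 62.4 and 61.3 CPM (-0.71, adjusted p = 0.000135, edgeR). *F2RL2*, a further receptor of that family, went from 3.19 and 3.76 to 0.765 and 0.757 CPM (-2.19, adjusted p = 1.73e-05, edgeR). *TFPI*, the inhibitor of tissue factor, had a log2 fold change of 0.46 and did not pass (adjusted p = 0.0111, edgeR).

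Of 8 tested genes for growth factors that these proteases activate, and for their activators and receptors, 1 passed. *PDGFC*, whose product tissue plasminogen activator cleaves, fell from 281 and 289 to 175 and 156 CPM (log2 fold change -0.78, adjusted p = 0.000105, edgeR). *PDGFD*, whose product urokinase cleaves, was at 1.68 to 2.86 CPM and did not pass. *MET*, the receptor of hepatocyte growth factor, stood at 199 to 224 CPM at a log2 fold change of 0.027, and *HGF* had at most 8 counts. Of the 7 tested genes that encode GPI-anchored proteins of the fold of the urokinase receptor, 2 fell. *LYPD1* went from 51.4 CPM in each miControl library to 17.8 and 17.2 CPM (-1.55, adjusted p = 3.32e-07, edgeR). *CD59*, an inhibitor of complement, went from 468 and 464 to 355 and 330 CPM (-0.45, adjusted p = 0.00495, edgeR) and did not pass without miControl replicate 1 or 2 (adjusted p = 0.0926 and 0.0629, edgeR).

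For each of the 6 genes, the gene most like it over the 4 libraries was found by the root mean square difference of centred log2 CPM, among 9428 genes whose log2 CPM averaged 3 or more. These were *VBP1* for *PLAU* (0.0273), *TSPYL2* for *PLAT* (0.0114), *PMEPA1* for *PLAUR* (0.00892), *MARCHF3* for *SERPINE2* (0.0130), *PTTG1IP* for *ANXA2* (0.00258) and *SERF2* for *S100A10* (0.00588). With 4 libraries in 2 groups such a likeness describes the pattern and no more.

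**Figure D4:**
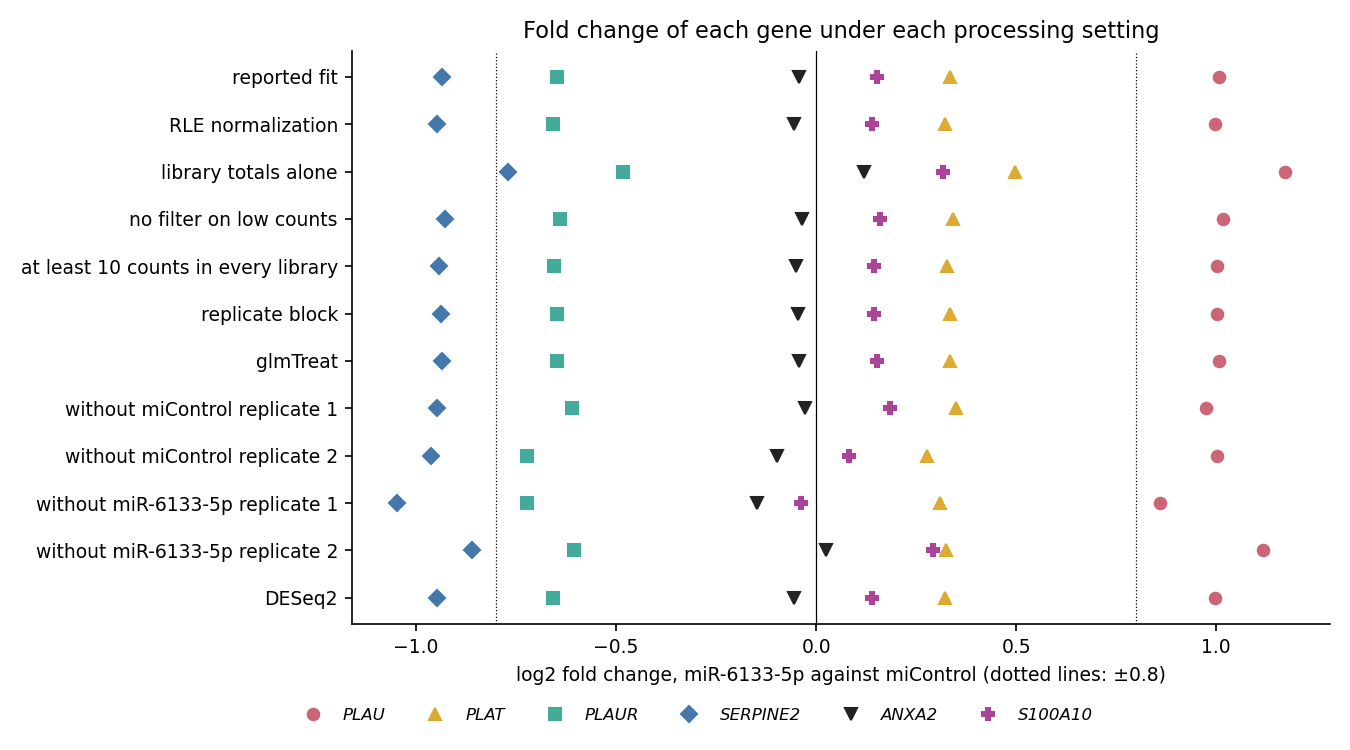
Log2 fold change of each of the 6 genes (horizontal axis) in the reported fit and under each of 11 alternatives (rows), with dotted lines at the size required for a call, 0.8 in either direction. *PLAU* stays above the upper line, *SERPINE2* crosses the lower line with library totals alone, at -0.77, and *ANXA2* and *S100A10* lie on both sides of 0.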

How the data were processed

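RNA of 4 LX-2 libraries, 2 per group, was sequenced as polyA-selected stranded pairs. The authors aligned the reads to GRCh37 with STAR 2.5.3a and deposited whole-number read counts per Ensembl gene from featureCounts (Subread 1.6.4), with no normalization. The strand setting and annotation release are not given in the sources used here. The aligner's summary, also deposited by the authors, gives the uniquely mapped fraction of read pairs, 96.52% to 96.76%. Counts per unique pair were 1.68 to 1.70. The files of single libraries and the count table held identical values.

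Genes were filtered with filterByExpr, scaled by TMM and tested with glmQLFit and glmQLFTest in edgeR 4.0.16 (R 4.3.3), 2-sided, with no block and with Benjamini-Hochberg adjustment over 18252 genes. Standard errors are the absolute log2 fold change divided by the square root of F. No interval was taken from counting error, since replicates vary beyond it, and the limit given for a count of 0 covers counting error only. Symbols were found for 55665 of 63677 IDs. Gene positions come from GENCODE 44 lifted to GRCh37, sequences from RefSeq tables of GRCh38.p14. The members and the wider lists were chosen with earlier results of these data known, and the named genes are the members, the genes of those lists and, per member, the most alike gene. Canonical transcript lengths, the ratio of *PLAU* to *PLAT* and DESeq2 counts for the wider lists were chosen after seeing the data. Alternatives were RLE factors, library totals alone, DESeq2 1.42.0, other filters, a replicate block, glmTreat and each library left out. Some genes of the system are not reported here. Python 3.11.15 and matplotlib 3.10.9 were used.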

Additional observations from a re-analysis of the deposited data

How the results depend on the processing

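Each fold change was recomputed under 11 alternatives. The call of *SERPINE2* was lost with library totals alone (log2 fold change -0.77) and under glmTreat, which tests against 0.8 itself (-0.94, adjusted p = 0.532). The call of *PLAU* was lost under glmTreat (1.01, adjusted p = 0.286) and under no other alternative. Members called lower thus numbered 0 in both and members called higher 0 under glmTreat. At any size, 0 members passed lower and 0 higher under glmTreat, which tests another hypothesis, and 2 passed higher with library totals alone. *ANXA2* moved to 0.12 with library totals alone. For all tested genes, 977 were called higher with library totals alone, in place of 529, and 326 lower and 80 higher under glmTreat, in place of 1011 and 529.

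When each library was left out, the arm with 1 library being assumed to vary like the other, the log2 fold change ranged from -1.05 to -0.86 for *SERPINE2*, 0.86 to 1.12 for *PLAU*, -0.72 to -0.60 for *PLAUR*, 0.28 to 0.35 for *PLAT*, -0.15 to 0.024 for *ANXA2* and -0.038 (without miR-6133-5p replicate 1) to 0.29 for *S100A10*. Members that passed lower ranged from 1 to 2, without miControl replicate 1 and otherwise, and genes called higher from 293 to 587. With the replicate number as a block, the log2 fold change of *SERPINE2* was -0.94 and that of *PLAU* 1.00, and no member's call changed. Called genes then numbered 1130 lower and 642 higher. Deviations of the same-numbered libraries were nearly uncorrelated across genes (Pearson's r 0.049). That value is over all tested genes, many at low counts, and cannot tell whether same-numbered libraries were made together. DESeq2, RLE factors and other filters changed no member's call. For the 70 wider genes there were 419 values under 6 alternatives. Of these, 383 stayed called or stayed uncalled, with no change of sign beyond the standard error. Most belonged to genes not called in the reported fit, where 6 of the 70 were called lower and 2 higher. Among the rest, 13 values lost a call, 9 gained one and 14 changed sign by more than the standard error without a call. A pass lost or gained at any size was not counted as a change. The cause of these changes was not tested. With 2 libraries per group the standard errors of the members were 0.10 to 0.12 log2, which limits the differences that could be seen.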
